A study of Homo sapiens with 15 samples.

Results

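Gene expression was compared between 6CD1m and 6CD2m cells, both treated with 1 μM Tubastatin A for 2 days. The comparison rests on 6 of the 15 RNA-seq libraries of the series, 3 from each line, which were chosen by their genotype and treatment labels. Both lines are HT1080 cells, an established human fibrosarcoma line, in which the endogenous KDAC6 gene was edited with CRISPR/Cas9. 6CD1m cells carry HDAC6H216A, a missense mutation in the first catalytic domain (CD1), and 6CD2m cells carry HDAC6H611A, a missense mutation in the second (CD2). Inhibitor, dose and duration were the same, so the question addressed is how treated cells differ with the domain that is mutated. Each domain is represented by 1 edited line, so the mutated domain and any other difference between the lines cannot be told apart. Untreated 6CD1m and 6CD2m cells are not analysed here, and a response to the inhibitor cannot be separated from a standing difference between the lines. The other 9 libraries, 3 in each group, came from 8CDm cells (mutated KDAC8), given the KDAC8 inhibitor PCI-34051 at 5 μM for 2 days, and from WT cells, given for 14 days either that agent at 5 μM or Tubastatin A at 1 μM. They helped to estimate the spread between replicates, and WT cells on Tubastatin A are quoted only as values set side by side, because they were treated for longer.

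Lysine deacetylases (KDACs, also called HDACs) remove acetyl groups from lysine side chains. KDAC6 is a mostly cytoplasmic member with tandem catalytic domains and a ubiquitin-binding zinc finger. Its CD2 deacetylates α-tubulin, and the enzyme is also linked to cortactin, HSP90, cell motility, and the handling of misfolded proteins. Tubastatin A is a hydroxamate developed as a KDAC6-selective inhibitor. The genes described below are therefore ordered by what their products do: the KDACs and cytoskeleton first, then division, matrix and signalling, then the stress, p53 and immune genes, and last the zinc finger genes and the chromosomes.

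The mutated codons are shown first, because they define the groups. Both lie on the plus strand of chromosome X in GRCh38, within coding exons of HDAC6 (GENCODE 29, transcript ENST00000334136.10, 1215 codons in frame). The reference bases are given with the histidine codon in capitals. The edited alleles were not read from these data, which hold counts only.
Codon of H216A, exon 9, chrX:48808046-48808048, changed in 6CD1m cells: gcctcctggacatCACgcccagcacagtc
Codon of H611A, exon 20, chrX:48817365-48817367, changed in 6CD2m cells: tcccccaggacacCACgcagagcaggatg

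Values below are CPM, counts scaled to a common library size with TMM (CPM in edgeR), and they compare a gene between libraries, not genes with each other. Fold changes are 6CD1m minus 6CD2m on the log2 scale with their standard error (SE). A gene is called when edgeR's quasi-likelihood p, adjusted by the Benjamini-Hochberg method over all genes tested, is below 0.001. Library totals on genes were 10932482, 13676011 and 14068276 counts in 6CD1m cells and 16527907, 19836664 and 17669208 in 6CD2m cells. Replicate 1 of 6CD1m cells stood apart from its group, with correlations across genes of 0.975 and 0.963 to the other 6CD1m libraries, which correlated at 0.988 with each other, whereas 6CD2m pairs reached 0.991 to 0.992. Small structural RNA genes took 7.27%, 5.23% and 5.07% of counts in 6CD1m cells and 4.74%, 3.58% and 3.34% in 6CD2m cells (exact two-sided permutation p = 0.1, the smallest that groups of 3 allow). The log2 fold change of protein-coding genes correlated with their GC content (Spearman rho 0.329 across genes, which are not independent replicates). The part of depth, of small RNA content and of GC content in the results was not tested beyond the refits quoted here. The sum of 18 mesenchymal markers was 5616 to 7096 CPM in 6CD1m cells and 4683 to 5271 CPM in 6CD2m cells. Of the markers of other cell types, PTPRC, HBB and HBA1 (haematopoietic), KRT5 and KRT14 (epithelial), MYOG and MYF5 (muscle), ERG (endothelial) and SOX10 (melanocytic) were at 0, while other members of these lists were detected. The 12 haematopoietic markers summed to 25.8 to 60.6 CPM in 6CD1m cells and 61.2 to 62.8 CPM in 6CD2m cells, and the sums of the other lists stand among the additional observations.

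HDAC6 itself was lower in 6CD1m cells. Its level was 14.2, 12.6 and 12.4 CPM in 6CD1m cells and 22.9, 25.1 and 25.1 CPM in 6CD2m cells, with no overlap (log2 fold change -0.90, SE 0.124, adjusted p = 5.42e-05). WT cells on Tubastatin A had a mean of 25.6 CPM. HDAC4, a class IIa KDAC that represses transcription, was higher in 6CD1m cells at 41.7, 36.5 and 30.9 CPM against 20.9, 21.0 and 20.5 CPM (log2 fold change 0.81, SE 0.149, adjusted p = 0.000646). That call was lost with the replicate number as a block (adjusted p = 0.00141) and without replicate 1 of 6CD1m cells (adjusted p = 0.00292), and also without replicate 2 of 6CD1m cells or any 1 of the 6CD2m libraries. The other 9 of the 11 KDAC genes were not called. Among these, HDAC8 had the smallest log2 fold change (-0.04, SE 0.138, adjusted p = 0.846) and HDAC7 the lowest adjusted p (0.00535). Of 29 listed KDAC6 substrates and partners, 3 were called higher in 6CD1m cells and 2 higher in 6CD2m cells, with a median log2 fold change of 0.09. That is 17.2% called, near the 13.2% of all genes tested.

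Of 19535 genes tested, 2576 were called (13.2%), of which 1278 were higher in 6CD1m cells (6.54% of genes tested) and 1298 higher in 6CD2m cells (6.64%). The 2 directions were near balance, but large differences were more often higher in 6CD2m cells: 621 against 822 genes at 2-fold or more, and 87 against 207 at 8-fold or more. The median log2 fold change of all genes tested was 0.05. Protein-coding genes, which fill nearly all of the lists below, were called more often than genes tested as a whole. Of 13958, 1129 were higher in 6CD1m cells and 1176 in 6CD2m cells. Shares over all genes tested thus understate the background of a list. A fit of only the 6 libraries called 1088 genes, 38.6% of them higher in 6CD1m cells, against 49.6% in the fit of all 15. Libraries of the 2 groups did not overlap in any of the 2576 called genes, and neither did they in 51.7% of all genes tested. Against the other 9 libraries, 6CD2m cells were the more often apart. Among genes called higher in 6CD1m cells, the 6CD2m libraries alone lay outside the range of those 9 in 699, the 6CD1m libraries alone in 101, both in 83 and neither in 395. Among genes called higher in 6CD2m cells, the 6CD2m libraries alone were outside in 750, the 6CD1m libraries alone in 131, both in 113 and neither in 304. Over all genes tested, the 6CD2m libraries were outside in 20% and the 6CD1m libraries in 6.1%. A line counted as outside only if all 3 of its libraries lay above or all lay below those 9. Scattered replicates meet this less often, and those of 6CD1m cells correlated less (0.963 to 0.988) than those of 6CD2m cells (0.991 to 0.992). The part of this in the contrast was not tested. The 9 also differ from both lines in genotype, and in inhibitor or duration.

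**Figure D1:**
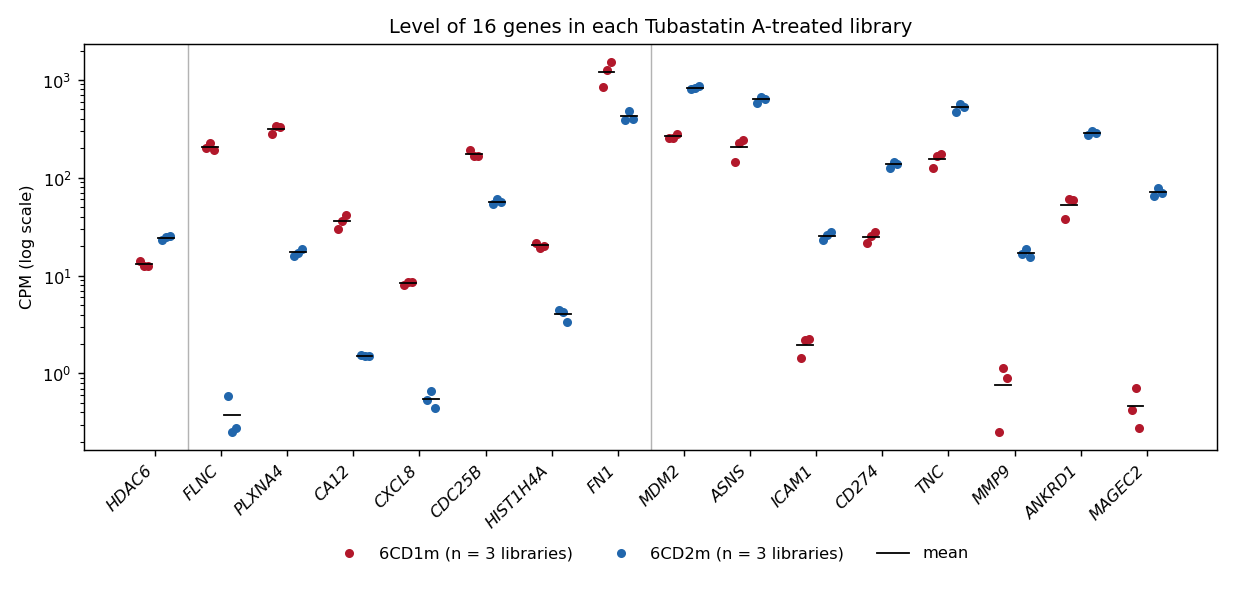
CPM (log axis) of 16 genes in the 3 libraries of each line, with points for libraries and a bar for the mean of each group. HDAC6 comes first, followed by 7 genes called higher in 6CD1m cells, among them FLNC at 191 to 228 CPM against 0.253 to 0.591 CPM, and 8 called higher in 6CD2m cells, among them MDM2 at 818 to 859 CPM against 254 to 283 CPM.

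Actin-binding and contractile genes held some of the largest differences, in both directions. Of 62 tested, 12 were higher in 6CD1m cells and 14 higher in 6CD2m cells (11 and 21 with GC offsets, median log2 fold change -0.24). FLNC, which encodes filamin C, an actin cross-linker of muscle and stress fibres, was at 201, 228 and 191 CPM in 6CD1m cells and 0.591, 0.253 and 0.278 CPM in 6CD2m cells (log2 fold change 9.11, SE 0.183, adjusted p = 9.47e-14). EPB41L3, a membrane-cytoskeleton linker, was at 82.2, 105.6 and 127.9 CPM against 0.296, 0.202 and 0.222 CPM (log2 fold change 8.74, SE 0.286, adjusted p = 3.28e-11). Both were thus near the bottom of the detectable range in every 6CD2m library, and WT cells on Tubastatin A had means of 257 CPM for FLNC and 212 CPM for EPB41L3. MYH10, non-muscle myosin IIB, was at 93.1, 88.8 and 95.7 CPM against 15.6, 16.6 and 14.8 CPM (log2 fold change 2.56, SE 0.082). The focal adhesion protein gene TLN2 was also higher in 6CD1m cells, by 1.20 on the log2 scale. The opposite pattern was held by MARCKS, a membrane protein that binds actin and calmodulin, at 0.252, 0 and 0.0696 CPM in 6CD1m cells and 30.6, 31.2 and 29.8 CPM in 6CD2m cells (log2 fold change -8.16, SE 0.412, adjusted p = 3.16e-09). Here WT cells on Tubastatin A, with a mean of 0.350 CPM, were low like 6CD1m cells.

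Among the 14 actin-list genes higher in 6CD2m cells were 4 that smooth muscle is known to express, while 12 genes of the list, FLNC among them, were higher in 6CD1m cells. The separate muscle marker list summed to 183 to 207 CPM in 6CD1m cells and 122 to 153 CPM in 6CD2m cells. It holds mainly genes of striated muscle and so does not bear on smooth muscle. ACTA2, smooth muscle actin, was at 8.91, 12.8 and 14.1 CPM in 6CD1m cells and 42.2, 41.2 and 43.3 CPM in 6CD2m cells (log2 fold change -1.81, SE 0.178, adjusted p = 2.09e-06). TAGLN (transgelin), MYL9 (a myosin light chain) and CALD1 (caldesmon) had log2 fold changes of -1.72, -1.32 and -0.97. 8CDm cells were also high in ACTA2 (mean 35.9 CPM) and CALD1 (287 CPM). None of these 4 genes overlapped between the groups, which held for every called gene and for 51.7% of all genes tested. Of 20 tubulin genes, 3 were higher in 6CD1m cells and 2 in 6CD2m cells (25.0% called, beside 13.2% of all genes tested). TUBB3, a β-tubulin best known from neurons, was at 87.4, 111 and 119 CPM against 34.5, 39.5 and 36.8 CPM (log2 fold change 1.52, SE 0.118). Reads may be split uncertainly among near-identical tubulin genes. Microtubule motors and associated proteins gave 8 called higher in 6CD1m cells (1 to 12 over the alternatives) and 3 in 6CD2m cells (0 to 7) of 58, and 5 and 1 without replicate 1 of 6CD1m cells, with the doublecortin-like kinase DCLK2 at 29.1, 20.7 and 15.9 CPM against 6.62, 6.27 and 5.17 CPM. Of 11 keratins, 1 was called in each direction (18.2% called): KRT15 had a log2 fold change of 1.22 and KRT80 of -1.03. Among 12 other intermediate filament genes, 3 were higher in 6CD1m cells, led by the nuclear lamin gene LMNA at 640, 604 and 550 CPM against 314, 329 and 291 CPM. Of the 2 higher in 6CD2m cells, the muscle filament gene SYNM had a log2 fold change of -1.88.

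Genes of cell division were the largest group higher in 6CD1m cells. Of 75 tested, 36 were higher in 6CD1m cells (20 to 48 over the alternative analyses at the same threshold) and 3 in 6CD2m cells, with a median log2 fold change of 0.71 beside 0.05 for all genes. Those 36 made up 48.0% of the list, beside 6.54% of all genes tested. They covered several steps of the cycle. CDC25B, the phosphatase that activates CDK1, was at 195, 166 and 166 CPM in 6CD1m cells and 54.2, 60.7 and 56.7 CPM in 6CD2m cells (log2 fold change 1.62, SE 0.089, adjusted p = 6.67e-09). FOXM1, a transcription factor for genes of G2 and mitosis, was at 150, 147 and 142 CPM against 57.5, 60.4 and 55.6 CPM (log2 fold change 1.34, SE 0.084). PLK1, the mitotic polo-like kinase, was at 163, 181 and 161 CPM against 63.6, 66.8 and 61.2 CPM (log2 fold change 1.40, SE 0.091). TK1, thymidine kinase of S phase, had a log2 fold change of 1.46. CDKN2C, which does the reverse and inhibits CDK4 and CDK6, was also higher in 6CD1m cells, at 34.6, 33.9 and 35.9 CPM against 7.81, 9.41 and 10.8 CPM. The CDK inhibitor CDKN1A (p21) was higher in 6CD2m cells, at 205, 227 and 211 CPM against 123, 123 and 133 CPM (log2 fold change -0.76, SE 0.107, adjusted p = 6.32e-05). Also higher in 6CD2m cells were the cyclin gene CCND2 and the kinase gene CDK6, neither an inhibitor, with log2 fold changes of -0.77 and -0.96. Both calls were lost with the replicate block (adjusted p = 0.00157 and 0.00188 by edgeR). The summed level of the list was 7198 to 8765 CPM in 6CD1m cells, 5559 to 6070 CPM in 6CD2m cells and 8313 to 9669 CPM in WT cells on Tubastatin A. Of the 39 called genes, neither line was outside the range of the other 9 libraries in 17, and the 6CD2m libraries alone in 13. 8CDm cells were low like 6CD2m cells in FOXM1 (mean 62.3 CPM) and lay between the lines in CDC25B (109 CPM).

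Replication-dependent histone genes were the most one-sided list. Of 46 clustered histone genes tested, 27 were higher in 6CD1m cells (19 to 32 over the alternatives) and 0 higher in 6CD2m cells by edgeR (0 to 2), with a median log2 fold change of 1.03. In the latter direction 2 genes had an unadjusted p below 0.05, and DESeq2 called 2. HIST1H2AB was at 74.3, 73.2 and 90.7 CPM in 6CD1m cells and 19.6, 17.1 and 16.8 CPM in 6CD2m cells (log2 fold change 2.16, SE 0.120, adjusted p = 7.07e-09). HIST1H4A was at 21.8, 19.4 and 20.1 CPM against 4.49, 4.20 and 3.39 CPM (log2 fold change 2.34, SE 0.141, adjusted p = 1.46e-08). The more abundant HIST1H3C was at 343, 335 and 381 CPM against 146, 128 and 118 CPM. Summed over the list, the level was 4911 to 6823 CPM in 6CD1m cells, 2951 to 3206 CPM in 6CD2m cells and 6314 to 7368 CPM in WT cells on Tubastatin A. Among the called histone genes, neither line was outside the range of the other 9 libraries in 17 of 27, and 8CDm cells were low like 6CD2m cells in HIST1H3C (mean 137 CPM) and HIST1H4A (3.75 CPM). Most of these transcripts have no poly(A) tail and are seen here because the RNA was depleted of rRNA, and near-identical copies may share reads.

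The promoter of a called gene from the cell cycle and from the histone list is shown, because their promoters are known for motifs close to the start. The sequences are those of RefSeq on GRCh38.p14, from 250 bases before to 50 after the start of transcription, with motif matches on either strand in capitals. The box CCAAT was searched, which reads ATTGG on the other strand. TTTGAA, which reads TTCAAA there, is the core of the cell cycle homology region. TATAAA, which reads TTTATA there, is the core of the TATA box. In PLK1, CCAAT begins 73 bases and TTTGAA 29 bases before the start. HIST1H2AB, listed as H2AC4 in RefSeq, has 4 matches to CCAAT and a TATAAA 30 bases before the start.
PLK1, chr16:23678639-23678938, plus strand: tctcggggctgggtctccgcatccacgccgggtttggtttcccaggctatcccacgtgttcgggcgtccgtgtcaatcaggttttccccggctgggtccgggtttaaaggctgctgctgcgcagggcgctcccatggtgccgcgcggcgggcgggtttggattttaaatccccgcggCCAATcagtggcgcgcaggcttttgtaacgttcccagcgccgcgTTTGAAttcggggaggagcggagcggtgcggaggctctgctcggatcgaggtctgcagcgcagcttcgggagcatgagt
H2AC4, chr6:26033569-26033868, minus strand: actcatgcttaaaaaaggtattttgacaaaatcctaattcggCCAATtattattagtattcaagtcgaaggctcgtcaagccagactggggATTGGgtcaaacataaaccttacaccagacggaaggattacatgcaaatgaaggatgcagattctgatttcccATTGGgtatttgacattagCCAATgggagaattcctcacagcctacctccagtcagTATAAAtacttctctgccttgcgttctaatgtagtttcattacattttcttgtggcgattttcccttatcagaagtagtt
CCAAT was present in 26 of the 32 called cell cycle genes with a promoter in the table (81.2%) and in 39.7% of all 27305 genes with one, and TTTGAA in 11 of 32 (34.4%) and 18.2%. Of 21 called histone genes with a promoter, 18 held CCAAT (85.7%) and 16 held TATAAA (76.2%), the latter beside 14.0% of all genes. A gene was counted if the window at any of its listed starts held a match. Uncalled members of these lists were not counted, so the shares do not tie a motif to being called. A match is a description of the letters in this window and not evidence of a bound factor.

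In the lists of chromatin regulators, the called genes were higher in 6CD1m cells, but only the first list held more of them than the background. In the list of PRC2 and DNA methylation genes, 8 of 28 were called, each higher in 6CD1m cells (2 to 9 over the alternatives), and 3 with an unadjusted p below 0.05 and 1 called by DESeq2 were higher in 6CD2m cells. UHRF1, which recruits DNA methyltransferase to replicated DNA, was at 187, 197 and 163 CPM against 72.7, 80.3 and 76.3 CPM (log2 fold change 1.25, SE 0.098). The methyl-CpG-binding protein gene MBD1, which lies on chromosome 18, had a log2 fold change of 1.08. Of 43 bromodomain and histone acetyltransferase genes, 3 were called, again each higher in 6CD1m cells, and 4 with an unadjusted p below 0.05 and 0 called by DESeq2 were higher in 6CD2m cells. That is 7.0% called, below the 13.2% of all genes tested, and the median log2 fold change was 0.04. The acetyltransferase gene EP300 was at 164, 166 and 177 CPM against 88.9, 90.2 and 93.6 CPM (log2 fold change 0.89, SE 0.080, adjusted p = 8.43e-07). Among 108 developmental transcription factors, 12 were higher in 6CD1m cells and 3 in 6CD2m cells (13.9% called, near the share of all genes tested). SOX7 was at 12.2, 10.2 and 10.6 CPM in 6CD1m cells and 0.473, 0.607 and 0.611 CPM in 6CD2m cells (log2 fold change 4.26, SE 0.341), and WT cells on Tubastatin A lay between, at a mean of 2.79 CPM. In the other direction LHX6, a homeobox factor, had a log2 fold change of -2.23. Of 30 HOX genes, 4 were higher in 6CD1m cells and 1 in 6CD2m cells (16.7% called). None of the 5 kept its call in every refit. Regulators of epithelial-mesenchymal transition gave 5 of 24 higher in 6CD1m cells (2 to 8 over the alternatives) and 0 in 6CD2m cells by edgeR and by DESeq2, with 1 at an unadjusted p below 0.05. TWIST1 and TWIST2, which repress epithelial genes, had log2 fold changes of 1.49 and 1.48, with TWIST2 at 23.04, 20.4 and 18.5 CPM against 6.80, 7.84 and 7.5 CPM. GRHL2, which is also in the epithelial marker list, was higher in 6CD1m cells too (log2 fold change 3.01, SE 0.408, called in 14 of 16 refits). It was low in both lines, with means of 1.97 CPM and 0.237 CPM. The called members therefore do not read as a shift towards 1 state.

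Extracellular matrix genes were divided between the lines. Of 50 matrix protein genes, 8 were higher in 6CD1m cells and 7 in 6CD2m cells (10 and 12 with GC offsets). FN1, fibronectin, was at 839, 1260 and 1512 CPM in 6CD1m cells and 392, 485 and 395 CPM in 6CD2m cells (log2 fold change 1.51, SE 0.216, adjusted p = 7.77e-05). THBS1, thrombospondin, was at 498, 730 and 795 CPM against 184, 222 and 194 CPM (log2 fold change 1.75, SE 0.184). The fibrillin gene FBN2 and the laminin chain gene LAMA3 had log2 fold changes of 2.08 and 3.76, the latter on chromosome 18. Tenascin C (TNC) took the other direction, at 127, 165 and 177 CPM in 6CD1m cells and 471, 569 and 534 CPM in 6CD2m cells (log2 fold change -1.74, SE 0.133, adjusted p = 1.73e-07). TGFBI and the laminin chain gene LAMB1 had log2 fold changes of -1.24 and -0.76. Matrix cross-linking and processing enzymes gave 6 of 27 higher in 6CD1m cells and 3 in 6CD2m cells (7 in each direction with GC offsets). PCOLCE, an enhancer of procollagen cleavage, was at 6.05, 6.59 and 4.39 CPM against 0.414, 0.810 and 0.889 CPM. The prolyl hydroxylase gene P3H2, the heparan sulfatase gene SULF2 and the collagen chaperone gene SERPINH1 were higher in 6CD2m cells, with log2 fold changes of -3.98, -3.12 and -1.41.

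Secreted proteases and their inhibitors also differed in both directions. Of 45 such genes, 4 were higher in 6CD1m cells (3 to 7 over the alternatives) and 10 in 6CD2m cells (4 to 12), and without replicate 1 of 6CD1m cells 6 and 7. MMP9, gelatinase B, was at 0.252, 1.12 and 0.905 CPM in 6CD1m cells and 16.8, 18.7 and 15.3 CPM in 6CD2m cells (log2 fold change -4.42, SE 0.299, adjusted p = 4.83e-08). MMP1, the interstitial collagenase, was at 0.505, 0.491 and 0.836 CPM against 15.7, 24.4 and 22.0 CPM (log2 fold change -5.05, SE 0.319), with a mean of 41.9 CPM in WT cells on Tubastatin A. ADAMTS9 and ADAMTS7 had log2 fold changes of -2.63 and -1.55. The inhibitor TIMP3 was higher in 6CD1m cells, at 31.9, 45.6 and 47.8 CPM against 9.64, 10.8 and 8.39 CPM (log2 fold change 2.12, SE 0.184). SERPINB5 (maspin), on chromosome 18, was at 6.56, 14.2 and 17.8 CPM in 6CD1m cells and at 0 in all 3 6CD2m libraries, which makes it at least 77.6-fold higher in 6CD1m cells (against a floor of 3 counts in each library; this and the other bounds cover counting error only).

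Cadherins and immunoglobulin-type adhesion genes were called more often higher in 6CD2m cells than higher in 6CD1m cells, and integrins in either direction. Of 42 cadherins and immunoglobulin-type adhesion genes, 2 were higher in 6CD1m cells and 12 in 6CD2m cells (8 to 16 over the alternatives), 28 were not called, and the median log2 fold change was -0.66. BCAM, a laminin receptor, was at 0.757, 0.280 and 0.418 CPM against 27.4, 27.6 and 24.7 CPM (log2 fold change -5.79, SE 0.270, adjusted p = 1.54e-09). ICAM1, the leukocyte integrin ligand, was at 1.43, 2.17 and 2.23 CPM against 23.4, 25.9 and 27.7 CPM (log2 fold change -3.71, SE 0.241). CDH13, a cadherin without a transmembrane segment, was at 195, 239 and 269 CPM against 523, 591 and 598 CPM. The neural adhesion gene NCAM1 went the other way, with a log2 fold change of 1.17. Clustered protocadherins, whose near-identical exons may share reads, gave 2 of 35 higher in 6CD1m cells and 5 in 6CD2m cells. Among 40 integrins and tetraspanins, 4 were higher in 6CD1m cells and 3 in 6CD2m cells. The collagen receptor chain gene ITGA10 was at 148, 110 and 110 CPM against 29.7, 29.7 and 26.4 CPM, and the tetraspanin gene CD9, at 3.45, 3.23 and 4.74 CPM against 0 in each 6CD2m library, was at least 23.01-fold higher in 6CD1m cells. ITGB2, the β2 chain of leukocyte integrins, was at 2.27, 1.68 and 1.81 CPM against 22.6, 25.0 and 21.7 CPM. ICAM1 and the chain of its receptor were thus both higher in 6CD2m cells. Of 16 surface antigens of fibroblasts and sarcomas, 2 were higher in 6CD1m cells, CSPG4 (log2 fold change 1.70) and the aminopeptidase gene ANPEP (1.03), and 4 in 6CD2m cells, among them the stem cell antigen gene PROM1 (-2.80).

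**Figure D2:**
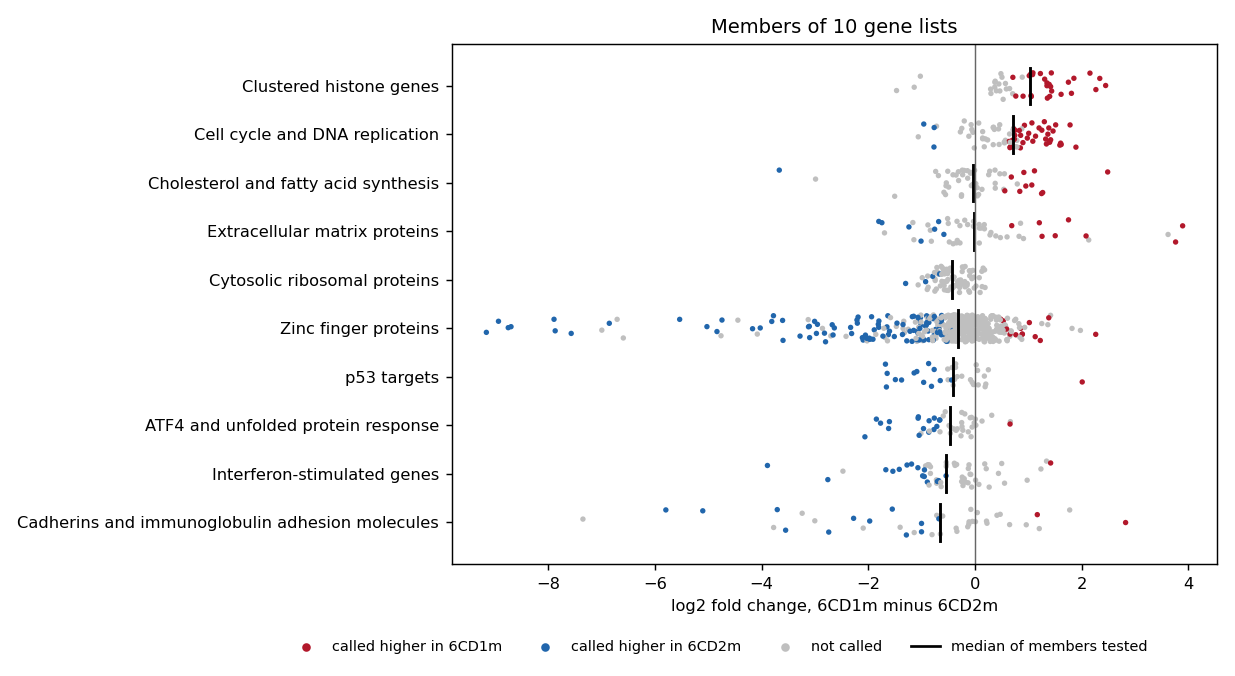
Log2 fold change (6CD1m minus 6CD2m) of each tested member of 10 gene lists, with a bar at the list's median and a line at 0. The median is 1.03 for clustered histone genes and 0.71 for cell cycle genes, and lies below 0 for the p53 (-0.40), ATF4 (-0.46) and interferon (-0.54) lists.

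Ligands, receptors and guidance cues were spread over both directions. Axon guidance genes, which steer growing neurites and also migrating cells, gave 9 of 66 higher in 6CD1m cells and 8 in 6CD2m cells. PLXNA4, a semaphorin co-receptor, was at 284, 336 and 328 CPM in 6CD1m cells and 16.02, 16.9 and 18.9 CPM in 6CD2m cells (log2 fold change 4.19, SE 0.101, adjusted p = 7.42e-13). SEMA5A was at 22.5, 33.4 and 35.9 CPM against 3.13, 5.52 and 3.78 CPM, and PLXDC2, at 0 in each 6CD2m library, was at least 15.9-fold higher in 6CD1m cells. UNC5B, a netrin receptor, was at 6.64, 5.68 and 7.52 CPM against 35.1, 35.5 and 33.2 CPM (log2 fold change -2.39, SE 0.120). The semaphorin gene SEMA3F also had the lower level in 6CD1m cells, with a log2 fold change of -1.32. Of 64 growth factor and receptor tyrosine kinase genes, 9 were higher in 6CD1m cells and 12 in 6CD2m cells. GDNF, a neurotrophic factor, was at 5.72, 5.75 and 7.94 CPM in 6CD1m cells, while a single count was found over the 3 6CD2m libraries (ratio 356, 95% counting interval 63.4 to 14120). NRG1, a ligand of ERBB receptors, was at 42.6, 46.0 and 47.5 CPM against 17.7, 18.1 and 16.4 CPM. PDGFB, the insulin receptor gene INSR and the neurotrophin gene BDNF were higher in 6CD2m cells, with log2 fold changes of -3.86, -3.99 and -1.15. INSR was at 0.420, 0.982 and 0.487 CPM against 10.1, 9.82 and 10.89 CPM.

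The TGF-beta and BMP list had 11 of 48 genes higher in 6CD1m cells and 8 in 6CD2m cells. SMAD3, a transducer of TGF-beta signals, was at 559, 502 and 551 CPM against 303, 315 and 307 CPM (log2 fold change 0.80, SE 0.075, adjusted p = 1.25e-06). ID3, a BMP target, had a log2 fold change of 1.21. INHBE, an activin subunit gene, was at 10.0, 11.2 and 9.96 CPM in 6CD1m cells and 130, 150 and 131 CPM in 6CD2m cells (log2 fold change -3.72, SE 0.199, adjusted p = 5.54e-09). The ligand TGFB2 was at 21.4, 29.7 and 34.5 CPM against 89.3, 105 and 103 CPM (log2 fold change -1.79, SE 0.193). SMAD3 and TGFB2 thus differed in opposite directions, but ligand genes were not all on 1 side. INHBB, another activin subunit gene, was higher in 6CD1m cells like SMAD3 (log2 fold change 1.64, SE 0.196). Of 39 WNT genes, 2 were called in each direction: the receptors FZD7 and FZD8 had log2 fold changes of 1.39 and 1.28, and FZD3 was at 0.673, 1.61 and 1.11 CPM against 37.9, 38 and 38.6 CPM (log2 fold change -5.04, SE 0.254). Notch and Hedgehog genes gave 7 of 33 higher in 6CD1m cells (4 to 8 over the alternatives) and 1 in 6CD2m cells. The Notch ligand DLL1 was at 3.11, 2.73 and 3.27 CPM against 0.177, 0.101 and 0.0556 CPM, and the Hedgehog-binding protein gene HHIP at 100.8, 145 and 156 CPM against 36.7, 37.4 and 34.7 CPM. The transcription factor GLI2 had a log2 fold change of 1.16, and the receptor NOTCH2, higher in 6CD2m cells, of -0.93.

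Channels, transporters and receptors for small ligands gave shares closer to the background. Of 104 channel genes, 11 were higher in each line, and 9 in 6CD1m cells and 6 in 6CD2m cells without replicate 1 of 6CD1m cells. The calcium-activated potassium channel gene KCNN4 was at 107, 94.9 and 81.9 CPM against 23.8, 24.8 and 24.2 CPM (log2 fold change 1.96, SE 0.104). The voltage-gated potassium channel gene KCNH1 was higher in 6CD2m cells, with a log2 fold change of -1.21. Of 245 solute carriers, 15 were higher in 6CD1m cells and 26 in 6CD2m cells. The split was 11 and 45 with GC offsets, 10 and 10 with the replicate block, and 12 and 14 without replicate 1 of 6CD1m cells. The bicarbonate transporter gene SLC4A8 had a log2 fold change of 2.09, the zinc transporter genes SLC39A4 and SLC39A11 of -1.62 and -1.04. G protein-coupled receptors gave 9 of 108 higher in 6CD1m cells and 10 in 6CD2m cells (3 without replicate 1 of 6CD1m cells). LPAR3, a receptor for lysophosphatidic acid, was at 7.15, 8.69 and 6.48 CPM against 0.118, 0.253 and 0.222 CPM (log2 fold change 5.16, SE 0.251). EDNRA, the endothelin receptor gene, had a log2 fold change of 4.53. Synaptic and neuronal genes gave 9 of 68 in each direction (6 and 5 with the replicate block), with the vesicle fusion gene SNAP25 at 1.95 and the teneurin gene TENM1 at -4.79. SLITRK4 was at 0 in each 6CD1m library and at 8.81, 12.3 and 11.5 CPM in 6CD2m cells, at least 48.6-fold lower in 6CD1m cells.

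Inflammatory genes were higher in 6CD2m cells, apart from a small set led by CXCL8. Of 43 NF-kB targets, cytokines and chemokines, 4 were higher in 6CD1m cells and 14 in 6CD2m cells (9 to 16 over the alternatives). Those 14 made up 32.6% of the list, beside 6.64% of all genes tested. The death receptor ligand TNFSF15 was at 0.0841, 0.0701 and 0 CPM in 6CD1m cells and 8.81, 11.1 and 9.5 CPM in 6CD2m cells (ratio 199.7, 95% counting interval 55.0 to 1653). NFKB2, the p100 subunit gene, was at 52.0, 47.3 and 46.4 CPM against 89.6, 91.7 and 89.9 CPM (log2 fold change -0.90, SE 0.082). IL32 and CXCL16 had log2 fold changes of -2.67 and -2.35. CXCL8 (interleukin 8), which recruits neutrophils, was at 7.99, 8.62 and 8.56 CPM in 6CD1m cells and 0.532, 0.658 and 0.444 CPM in 6CD2m cells (log2 fold change 3.92, SE 0.222, adjusted p = 8.57e-09). IL1B was at 34.5, 40.8 and 43.8 CPM against 9.70, 11.3 and 12.1 CPM, and PTGS2, the inducible cyclooxygenase gene, had a log2 fold change of 2.84. WT cells on Tubastatin A had means of 275.5 CPM for IL1B and 21.0 CPM for CXCL8.

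Interferon-stimulated and antigen presentation genes leaned the same way. Of 55 interferon-stimulated genes, 1 was higher in 6CD1m cells and 15 in 6CD2m cells (6 to 20 over the alternatives), and the sum over the list was 1347 to 1607 CPM in 6CD1m cells, 2184 to 2270 CPM in 6CD2m cells and 1540 to 1784 CPM in WT cells on Tubastatin A. IFITM1, a membrane protein that limits viral entry, was at 2.27, 2.17 and 3.83 CPM against 18.5, 20.2 and 17.7 CPM (log2 fold change -2.76, SE 0.234, adjusted p = 5.23e-07). PARP12 and MX1 had log2 fold changes of -1.42 and -1.54. The abundant IFITM3 was at 112, 154 and 162 CPM against 284, 266 and 276 CPM. Of 31 antigen presentation genes, 1 was higher in 6CD1m cells and 9 in 6CD2m cells (5 to 13). CD274 (PD-L1), the immune checkpoint ligand, was at 21.4, 25.7 and 27.6 CPM in 6CD1m cells and 126, 146 and 139 CPM in 6CD2m cells (log2 fold change -2.46, SE 0.126, adjusted p = 3.91e-09), with a mean of 30.7 CPM in WT cells on Tubastatin A. HLA-B had a log2 fold change of -0.99 and the peptide-loading gene TAPBP of -0.68. Reads of HLA genes may be split among similar genes. Complement and coagulation genes gave 1 of 29 higher in 6CD1m cells and 4 in 6CD2m cells (9 with GC offsets), with C3 at 0.336, 0.561 and 0.766 CPM against 13.3, 16.3 and 15.6 CPM (log2 fold change -4.72, SE 0.508).

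Targets of p53 were higher in 6CD2m cells. Of 33 tested, 13 were higher in 6CD2m cells (7 to 17 over the alternatives) and 1 in 6CD1m cells, so that 39.4% were called in the first direction beside 6.64% of all genes tested. MDM2, which marks p53 for degradation and is itself induced by it, was at 254, 257 and 283 CPM in 6CD1m cells and 818, 829 and 859 CPM in 6CD2m cells (log2 fold change -1.66, SE 0.092, adjusted p = 6.67e-09). FAS, a death receptor, was at 10.85, 14.3 and 16.7 CPM against 43.9, 46.3 and 44.1 CPM (log2 fold change -1.68, SE 0.198). ZMAT3 and the ribonucleotide reductase gene RRM2B had log2 fold changes of -1.38 and -1.65, and the ectodysplasin receptor gene EDA2R of -0.81. Replicate 1 of 6CD1m cells was the lowest of its group in each of these genes. WT cells on Tubastatin A had a mean of 248 CPM for MDM2, and the summed level of the list was 2403 to 2529 CPM in 6CD1m cells, 3735 to 3883 CPM in 6CD2m cells and 2598 to 2831 CPM in WT cells on Tubastatin A. Neither line was outside the range of the other 9 libraries in 7 of the 14 called genes, and 8CDm cells were high like 6CD2m cells, with means of 658 CPM for MDM2, 65.1 CPM for EDA2R and 219 CPM for CDKN1A.

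Genes of amino acid and endoplasmic reticulum stress followed the same direction. Of 45 ATF4 and unfolded protein response genes, 16 were higher in 6CD2m cells (9 to 21 over the alternatives) and 1 in 6CD1m cells (median log2 fold change -0.46). ASNS, asparagine synthetase, was at 145, 228 and 246 CPM in 6CD1m cells and 587, 667 and 646 CPM in 6CD2m cells (log2 fold change -1.62, SE 0.198, adjusted p = 1.81e-05). ALDH1L2, a mitochondrial folate enzyme, was at 47.8, 60.0 and 62.3 CPM against 157, 181 and 180 CPM (log2 fold change -1.60, SE 0.145). The co-chaperone gene DNAJB9, a target of IRE1 signalling, was at 3.70, 5.61 and 5.99 CPM against 18.7, 22.3 and 23.3 CPM. GDF15, a stress-induced hormone, and DDIT4, an inhibitor of mTORC1, had log2 fold changes of -1.05 and -0.86. Of the 17 called genes, the 6CD2m libraries alone were outside the range of the other 9 libraries in 8, and the 6CD1m libraries alone in 4. 8CDm cells were high like 6CD2m cells in ALDH1L2 (mean 193 CPM) but not in DDIT4 (125 CPM). Heat shock proteins and co-chaperones gave 5 of 41 higher in 6CD2m cells (4 to 13) and 1 in 6CD1m cells. That is 14.6% called, near the 13.2% of all genes tested. HSPB8, a small heat shock protein of selective autophagy, was at 1.68, 2.10 and 1.39 CPM against 16.3, 17.6 and 17.3 CPM (log2 fold change -3.30, SE 0.252, adjusted p = 1.77e-07). The near-identical inducible HSP70 genes HSPA1A and HSPA1B had log2 fold changes of -1.01 and -1.14. HSPA1A was at 37.6, 42.1 and 36.8 CPM against 80.0, 78.0 and 76.5 CPM. In the list of proteasome, ubiquitin and autophagy genes, 3 of 64 were higher in 6CD1m cells and 8 in 6CD2m cells (0 to 14 over the alternatives, 5 without replicate 1 of 6CD1m cells). Here 17.2% were called. The autophagy receptor gene SQSTM1 (p62) was at 547, 547 and 546 CPM against 799, 837 and 809 CPM (log2 fold change -0.58, SE 0.085), and the autophagy kinase gene ULK2, at 4.63, 4.84 and 5.29 CPM against 0.355, 0.354 and 0.5 CPM, was higher in 6CD1m cells.

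The promoters of ASNS and HSPA1A, called genes of the ATF4 and heat shock lists known for the elements searched, are shown from RefSeq on GRCh38.p14. Searched were TGATGNAA (TTNCATCA on the other strand), the C/EBP-ATF response element, and GAANNTTC, a palindromic core of the heat shock element. In ASNS the match begins 68 bases before the start shown, and the window at a second ASNS start (chr7:97872116-97872415) holds no match. In HSPA1A the match begins 106 bases before the start.
ASNS, chr7:97872359-97872658, minus strand: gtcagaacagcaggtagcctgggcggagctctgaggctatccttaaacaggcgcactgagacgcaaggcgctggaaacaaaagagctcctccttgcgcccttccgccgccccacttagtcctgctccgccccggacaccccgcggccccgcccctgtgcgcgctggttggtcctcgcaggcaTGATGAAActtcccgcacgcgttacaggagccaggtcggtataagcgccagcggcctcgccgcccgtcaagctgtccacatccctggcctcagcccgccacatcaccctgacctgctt
HSPA1A, chr6:31815293-31815592, plus strand: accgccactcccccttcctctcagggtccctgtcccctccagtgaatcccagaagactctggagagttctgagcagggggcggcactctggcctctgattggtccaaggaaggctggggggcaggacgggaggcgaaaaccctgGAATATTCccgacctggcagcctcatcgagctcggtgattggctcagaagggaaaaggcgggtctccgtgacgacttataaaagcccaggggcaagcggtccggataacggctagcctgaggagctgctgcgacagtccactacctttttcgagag
TGATGNAA was present in 5 of 14 genes of the ATF4 list called higher in 6CD2m cells (35.7%) and in 4.5% of all genes with a promoter. GAANNTTC was present in 4 of 5 called heat shock genes (80.0%) and in 8.2% of all. The 5 include the near-identical pair HSPA1A and HSPA1B, so they are not independent. Uncalled members of these lists were again not counted.

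Metabolic lists differed in how many of their genes were called. Of 51 cholesterol and fatty acid synthesis genes, 10 were higher in 6CD1m cells (5 to 10 over the alternatives) and 1 in 6CD2m cells, though the median log2 fold change was -0.04 and 17 and 14 had an unadjusted p below 0.05. FDPS, which makes farnesyl pyrophosphate, was at 89.7, 87.7 and 75.5 CPM against 48.1, 49.6 and 43.4 CPM (log2 fold change 0.84, adjusted p = 6.07e-06). LSS and FADS2 had log2 fold changes of 0.68 and 0.95, and the phosphatidate phosphatase gene LPIN1 of 1.07. The fatty acid activating gene ACSL5 was higher in 6CD2m cells, at 0.925, 0.771 and 0.487 CPM against 8.87, 10.3 and 8.56 CPM. Of 49 hypoxia and glycolysis genes, 5 were higher in each line, and 4 in 6CD1m cells and 2 in 6CD2m cells without replicate 1 of 6CD1m cells. The carbonic anhydrases led the first set: CA12 was at 30.3, 36.3 and 42.0 CPM in 6CD1m cells and 1.54, 1.52 and 1.5 CPM in 6CD2m cells (log2 fold change 4.57, SE 0.181, adjusted p = 3.85e-10), and CA9 at 19.9, 18.3 and 19.2 CPM against 4.14, 4.76 and 3.50 CPM. NDRG1 and the glucose transporter gene SLC2A3 had log2 fold changes of -0.75 and -1.02. NRF2 and aryl hydrocarbon receptor targets gave 5 of 45 higher in 6CD1m cells and 3 in 6CD2m cells. Of 82 nuclear-encoded respiratory chain genes, 3 were higher in 6CD1m cells and 0 in 6CD2m cells by edgeR, where 11 had an unadjusted p below 0.05 and DESeq2 called 2. None of the 15 mitochondrially encoded genes was called by edgeR, 3 in each direction had an unadjusted p below 0.05, and DESeq2 called 1, MT-CO1, higher in 6CD2m cells. It also had the lowest adjusted p by edgeR (log2 fold change -0.41, SE 0.104, adjusted p = 0.00602). Mitochondrial ribosomal protein genes gave 5 of 77 higher in 6CD1m cells (2 without replicate 1 of 6CD1m cells) and 1 in 6CD2m cells, and cytosolic ribosomal protein genes 0 of 82 and 4 by edgeR (at an unadjusted p below 0.05, 2 and 48, and by DESeq2, 0 and 15). The count in 6CD2m cells was 11 with GC offsets and ran from 0 to 21 over the alternatives.

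Immediate early and YAP target genes were split, with 10 of 54 higher in 6CD1m cells and 9 in 6CD2m cells. ANKRD1, a YAP target, was at 37.8, 60.2 and 58.6 CPM in 6CD1m cells and 272, 302 and 285 CPM in 6CD2m cells (log2 fold change -2.45, SE 0.184, adjusted p = 1.46e-07). CYR61, another YAP target, had a log2 fold change of -0.85 at 504, 557 and 491 CPM against 921, 974 and 903 CPM. The transcription factor KLF4 was at 4.71, 3.65 and 2.65 CPM against 27.8, 27.1 and 28.3 CPM, and MYC at 77.1, 74.7 and 63.5 CPM against 124, 134 and 125 CPM (log2 fold change -0.83, SE 0.086). The orphan nuclear receptor gene NR4A2 was higher in 6CD1m cells, with a log2 fold change of 1.53. Of 20 imprinted genes, 1 was called in each direction. In 6CD2m cells the imprinted splicing factor gene SNRPN was the higher one, with a log2 fold change of -0.71.

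**Figure D3:**
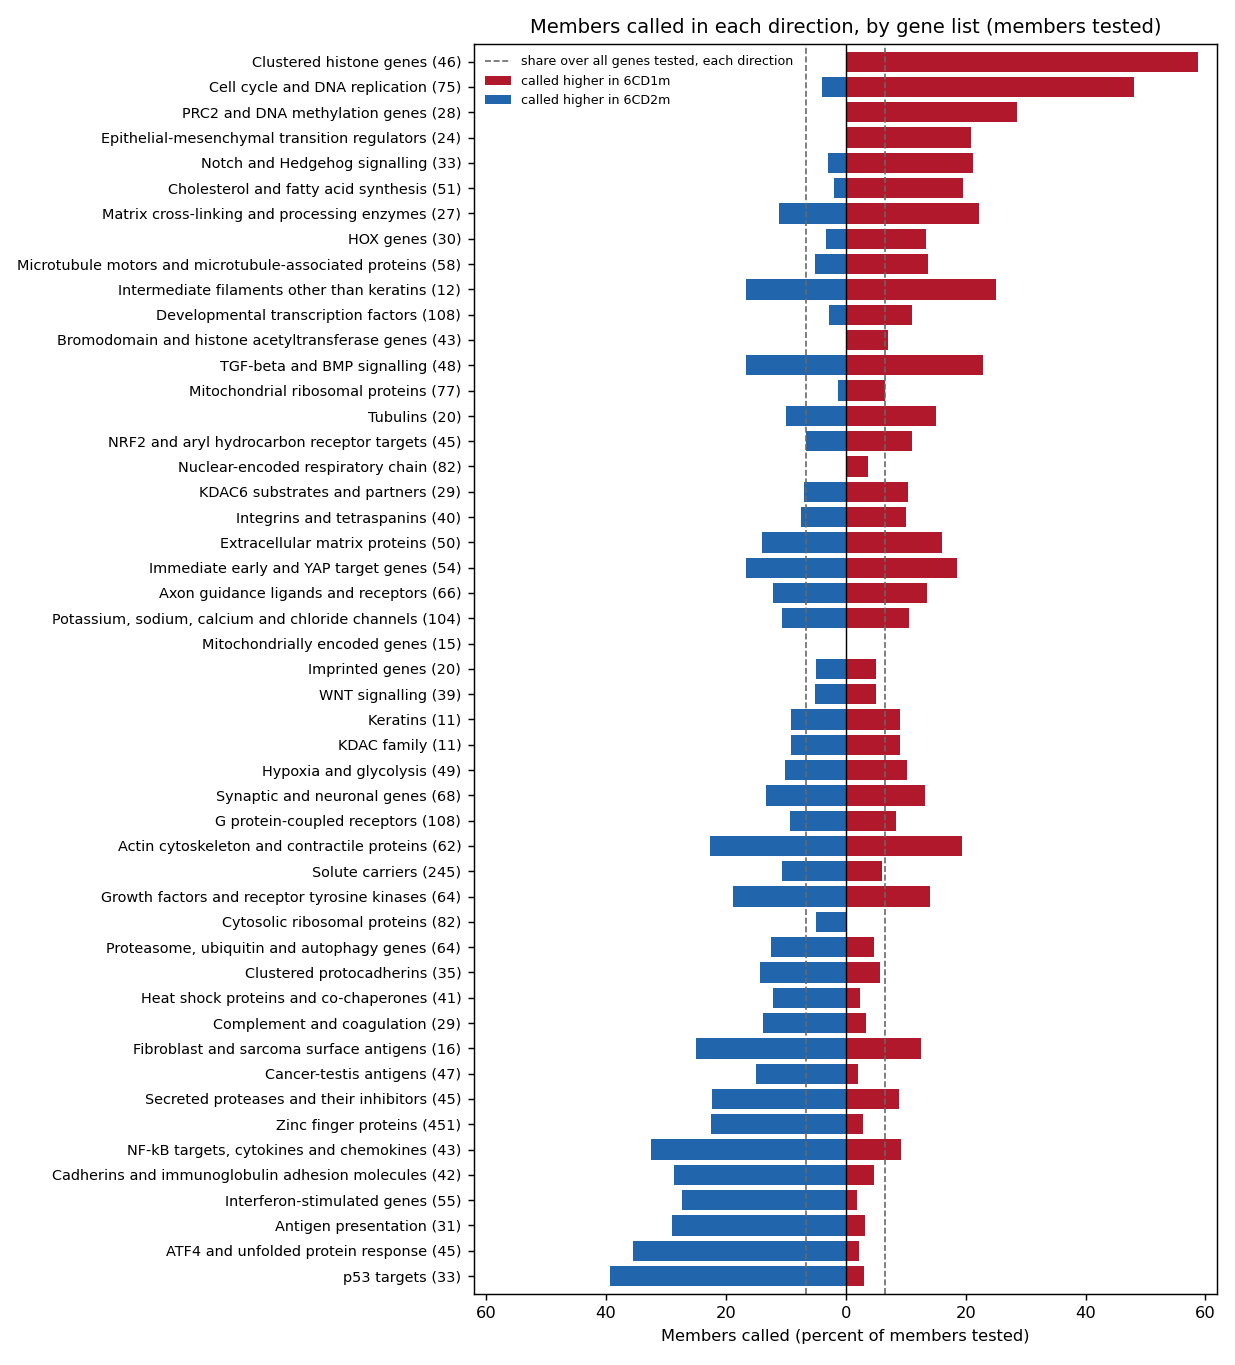
Percent of the tested members of each gene list called higher in 6CD1m cells (right) and higher in 6CD2m cells (left), with the number tested in brackets. Dashed lines mark the shares over all genes tested, 6.54% and 6.64%. Histone and cell cycle genes reach furthest right, and p53 and ATF4 genes furthest left.

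Zinc finger genes were the most numerous group higher in 6CD2m cells. Of 451 tested, 101 were higher in 6CD2m cells (57 to 141 over the alternatives) and 13 in 6CD1m cells, with a median log2 fold change of -0.33. Among those 101, 72 differed by at least 2-fold and 23 by at least 8-fold. Most are KRAB-type repressors that lie in clusters on chromosome 19, which held 213 of the tested members and 63 of the 101, but 0 of the 13. Neighbouring and similar members may share reads. ZNF468 was at 0.168, 0.140 and 0.766 CPM in 6CD1m cells and 10.4, 11.6 and 10.2 CPM in 6CD2m cells (log2 fold change -4.83, SE 0.358, adjusted p = 1.23e-07). ZNF600 was at 0.336, 0.280 and 0.139 CPM against 6.98, 6.38 and 7.11 CPM (log2 fold change -4.74, SE 0.438). ZNF28, ZNF559 and ZNF829 had log2 fold changes of -3.81, -2.33 and -1.80. Of the 13 in the other direction, the 4 with the lowest adjusted p, ZNF407, ZNF521, ZNF519 and ZNF236, lie on chromosome 18. With GC offsets the counts were 14 and 91, and with the replicate block 9 and 72. Cancer-testis antigens, which outside tumours are expressed mainly in germ cells, gave 1 of 47 higher in 6CD1m cells and 7 in 6CD2m cells. MAGEC2 was at 0.420, 0.701 and 0.279 CPM against 64.8, 79.4 and 69.9 CPM (log2 fold change -7.23, SE 0.291, adjusted p = 3.85e-10). MAGEC1 had a log2 fold change of -4.81, and PAGE2, at 0 in each 6CD1m library and a member of a family of similar genes, was at least 35.6-fold lower in 6CD1m cells.

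Genes outside these lists were among the largest differences. Higher in 6CD1m cells were the phosphodiesterase gene PDE4A at 11.02, 12.1 and 11.6 CPM against 0.473, 0.455 and 0.278 CPM, the gap junction gene GJB2 at 5.72, 11.5 and 9.40 CPM against 0.296, 0.253 and 0.167 CPM, and SHROOM4, a regulator of actomyosin, at 12.5, 13.3 and 14.9 CPM against 0.355, 0.354 and 0.0556 CPM. CYB5A, cytochrome b5, was at least 35.7-fold higher in 6CD1m cells. Higher in 6CD2m cells were CSF2RA, the GM-CSF receptor gene, at 0.168, 0.0701 and 0.209 CPM against 10.47, 10.8 and 9.33 CPM, and AFF2 at 0, 0.210 and 0.0696 CPM against 8.10, 9.16 and 9.11 CPM. IGFN1 had a log2 fold change of -5.54. The acyl-CoA thioesterase gene ACOT2 was at least 12.2-fold lower in 6CD1m cells, in which each library was at 0. WT cells on Tubastatin A had a mean of 9.43 CPM for ACOT2 and 0.544 CPM for CSF2RA. Abundant genes were also among those called: PABPC1, which binds poly(A) tails, was at 796, 1023 and 1156 CPM in 6CD1m cells and 2022, 2303 and 2265 CPM in 6CD2m cells (log2 fold change -1.15, SE 0.166), and the saposin precursor gene PSAP had a log2 fold change of -1.01.

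Differences were not spread evenly over the genome. On chromosome 18, 56 of 191 protein-coding genes tested were higher in 6CD1m cells and 6 in 6CD2m cells, 82.2% had a log2 fold change above 0, and the median was 0.51 (0.69 with GC offsets). Medians in 10-Mb windows along it ran from 0.25 to 0.98. EPB41L3, LAMA3, CYB5A and SERPINB5, described above, are on this chromosome, as are the formin gene FHOD3 at 159, 157 and 156 CPM against 58.2, 58.5 and 60.2 CPM (log2 fold change 1.41, SE 0.071) and the RANK gene TNFRSF11A (1.98). The netrin receptor gene DCC and the kinase gene ALPK2 were exceptions, with log2 fold changes of -3.39 and -1.10. Chromosome 2 held 120 genes higher in 6CD1m cells and 27 in 6CD2m cells of 914, and chromosome 13 39 and 9 of 237. Chromosomes 7 and 8 leaned the other way, with 47 and 102 of 651 and 17 and 60 of 473. Within chromosome 7, the first 10 Mb had a median of 0.51 (0.27 with GC offsets) and 17 genes higher in 6CD1m cells against 0, while 90 to 100 Mb had a median of -0.60 (-0.41 with GC offsets) and 0 against 16. Within chromosome 20, windows from 0 to 30 Mb had medians of 0.43 to 0.46, those from 30 to 60 Mb medians of -0.23 to -0.08, and the last, from 60 to 70 Mb, a median of 0.36 (0.07 with GC offsets). DNA copy number was not measured, and its part in these differences was not tested.

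**Figure D4:**
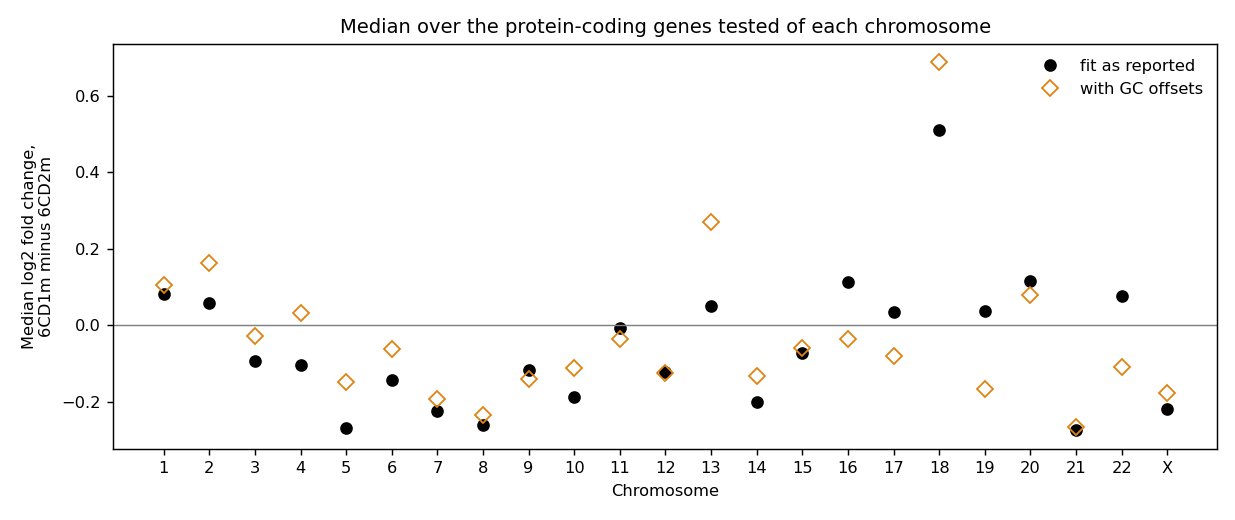
Median log2 fold change (6CD1m minus 6CD2m) of the protein-coding genes tested on chromosomes 1 to 22 and X, in the fit as reported (filled circles) and with GC offsets (open diamonds). Chromosome 18 stands apart at 0.51 and 0.69.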

How the data were processed

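RNA-seq data from 15 libraries of treated HT1080 cells were used, with 3 replicates in each of 5 groups. The study's methods describe biological replicates of rRNA-depleted total RNA, and the library strand is not given in the sources used here. The labels gave each library its group and number. The authors deposited expected counts (read counts as estimated per gene) for 60675 genes without normalization. The submitters' processing notes name Trimmomatic 0.39, Bowtie2 2.4.5, RSEM 1.3.3, DESeq2 1.38.2 and GRCh38. Fractions were found in 21.8% of the nonzero values, and counts were rounded before use. Positions, biotypes and GC content came from GENCODE 29, which matched 57055 genes by identifier. No pair of replicates was within counting noise.

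Tools were edgeR 4.0.16 (with limma 3.58.1) in R 4.3.3, and Python 3.11.15 with pandas 2.3.3, numpy 2.4.6, scipy 1.17.1 and matplotlib 3.10.9. edgeR's filter on low counts kept 19535 genes, libraries were scaled by TMM, and all 15 entered 1 model with a mean per group and no block (common biological coefficient of variation 16.4%). The contrast of 6CD1m with 6CD2m cells was tested by quasi-likelihood in edgeR, at a Benjamini-Hochberg false discovery rate of 0.001 as the study used. On simulated counts for this comparison, with 200 of 19535 genes changed at a time, 0 were recovered at 1.5-fold, 81 at 2-fold and 158 at 4-fold, with 0 false calls. Many more genes were called in the data (2576), so the adjusted threshold is less strict there and these recoveries do not carry over. Replicate numbers come from the labels. Deviations of same-numbered libraries of the 2 lines correlated at 0.391, 0.109 and 0.169, and those of differently numbered libraries at -0.37 to 0.229. These ranges overlap, so a pairing by number is not established. The numbers were treated as pairing the libraries only in the alternatives with a replicate block.

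The genes and lists were chosen with earlier results of these data known. Lists set by a shared prefix were trimmed of unrelated genes after values were seen, and no list was tested. Named genes follow a rule: HDAC1 to HDAC11, the 15 largest changes in each direction among called protein-coding genes with an average log2 CPM of at least 1, up to 5 called members per list and direction (likewise for chromosome 18) in order of adjusted p, and the 10 most abundant called genes that differ at least 2-fold. From these, the text favours genes that kept their call in the refits. Alternatives were DESeq2 1.42.0, TMM leaving out mitochondrial and small RNA genes, upper-quartile scaling, other filters and thresholds, protein-coding genes alone, no chromosome 18 genes, only the 6 libraries, the replicate block, GC offsets, thinning to the smallest library and leaving out each library. Lower bounds set a gene at 0 to 3 counts per library, and they and the counting intervals (95%) cover counting error only. The summed level of Y chromosome genes is not reported here. Results for some genes are not reported here.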

Additional observations from a re-analysis of the deposited data

How the results depend on the processing

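The 162 called genes followed across the alternatives were taken from those named in the text, which favours genes that kept their call. How many kept it was thus partly set by this choice and does not describe called genes at large. CCND2 and CDK6, which lost their calls with the replicate block, were not among the 162. None reversed, and 153 were called in every alternative at the same threshold. Of the others, beside HDAC4, the genes FDPS, IFITM3, LSS, NOTCH2, SNRPN, SQSTM1 and TAPBP lost their call in the fit of only the 6 libraries and FADS2 with GC offsets and the replicate block together. In total, higher in 6CD1m cells and higher in 6CD2m cells, DESeq2 called 4272, 1957 and 2315 genes, and the false discovery rate of 0.05 called 7884, 3919 and 3965. Asking also for a 2-fold difference left 1443, 621 and 822, and a fit of only the 6 libraries 1088, 420 and 668. Without a filter, 1989 genes were higher in 6CD2m cells. Leaving out 1 library gave 1451 to 2419 genes in total, 694 to 1183 higher in 6CD1m cells and 745 to 1236 higher in 6CD2m cells. The count moved by over 1.5 times without replicate 2 of 6CD1m cells (1583) or replicate 1, 2 or 3 of 6CD2m cells (1624, 1491, 1451). The cause of these shifts was not tested, except that fewer samples or another threshold were part of their construction. With GC offsets, the median of chromosome 18 was 0.69 in place of 0.51 (0.42 to 0.69 over the alternatives). With the replicate block, 1722 genes were called, and HDAC4 was the 1 followed gene that lost its call. Small changes could be missed at this threshold, and in simulated counts 0 of 200 genes changed 1.5-fold were recovered. The data differ from that setting, because with 2576 genes called the adjusted threshold is less strict, and GRB10 was called at 1.48-fold. The simulation therefore does not give the share of small changes missed here.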

Other observations

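Calls were also counted by gene class, without a test between classes, whose levels differ. Of 13958 protein-coding genes tested, 1129 were higher in 6CD1m cells and 1176 in 6CD2m cells. Of 1058 lincRNA genes, 42 were higher in 6CD1m cells and 51 in 6CD2m cells. Antisense genes gave 34 and 13 of 1500, and processed pseudogenes 25 and 8 of 1170. The strand used in counting is not given in the sources used here, so reads of an antisense gene and its partner cannot be told apart, and pseudogenes may share reads with their parents. Summed over 10 neuronal markers, levels were 116 to 156 CPM in 6CD1m cells and 55.5 to 62.7 CPM in 6CD2m cells, with 2 markers higher in 6CD1m cells and 1 in 6CD2m cells. Endothelial markers summed to 168 to 179 CPM and 286 to 326 CPM, with 0 and 2 called, and melanocytic markers to 15.5 to 18.03 CPM and 50.1 to 52.6 CPM, with 0 and 1 called. Epithelial markers summed to 415 to 484 CPM and 519 to 556 CPM, and muscle markers to 183 to 207 CPM and 122 to 153 CPM.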
